A study of Mus musculus with 10 samples.

Results

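All 6 arrays of mouse embryonic fibroblasts carrying a conditional Dicer knockout (CDKO) were set against all 4 arrays of wild-type fibroblasts (WT), whatever the treatment. Members were the genes for which every array of one line lay above every array of the other. A probe set, the group of short probes that reports 1 transcript on an Affymetrix array, was tested if its mean was at least 4 on the log2 scale in either line. Of 19746 tested probe sets, 1630 had no overlap between the lines (8.25%), and of 10371 genes, each represented by its probe set with the highest mean, 775 did (7.47%).

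The CDKO groups were untreated cells, cells given 1 µM 4-hydroxytamoxifen (OHT) and cells given 5 µM, the drug being present for 4 days. The WT groups were untreated cells and cells given 5 µM for 4 days, and each of the 5 groups had 2 arrays. Mouse embryonic fibroblasts are connective tissue cells grown out of mouse embryos. The labels name no Cre driver, no strain and no clone, and they leave unsaid whether the WT line carries the same Cre and whether replicate arrays represent separate cultures. The p-values below measure the spread between these arrays, which may be technical. Titles give 4 samples as wild type although every description speaks of the conditional knockout, and the titles were followed.

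Dicer cuts microRNA precursors into mature microRNAs, which are loaded on Argonaute proteins and lower the amount or the translation of matching messenger RNAs. In a conditional knockout the gene is meant to work until a Cre recombinase removes part of it, and OHT is a drug that activates Cre proteins joined to an estrogen receptor domain. Fibroblast cultures are known to keep marks of their origin, such as Hox and other positional genes, to hold some macrophages and fat cell precursors, and to change their cell cycle inhibitors as they are passaged.

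The label of the cells was checked against 15 tested fibroblast markers, none of which separated the lines. Their median level per array was 11.7 to 13.8 in CDKO arrays and 12.9 to 13.1 in WT arrays (log2). The array controls were uneven: the hybridisation spike-ins were in a lower class in 4 of the 6 CDKO arrays (untreated replicate 2, both at 1 µM, and 5 µM replicate 2) and in a higher class in the other 2 and in all 4 WT arrays. The 18S ribosomal RNA control was raised in CDKO 1 µM replicate 2 (10.2) and in both untreated WT arrays (11.6 and 11.2). It read 8.44 in CDKO untreated replicate 2, which was not counted as raised, and 5.21 to 6.87 in the remaining arrays. In the 3 arrays with raised 18S the Gapdh probe set at the 3′ end read above the one at the 5′ end, a sign of RNA quality. The step was 1.58 in the CDKO array and 0.89 and 0.67 in the WT arrays (0.0686 or less in the other 7). Line differences were therefore also taken within the higher class (2 CDKO against 4 WT arrays) and without the 3 arrays with raised 18S. Xist, which is transcribed from the inactive X chromosome of female cells, read 8.26 to 10.6 in CDKO arrays and 9.02 to 10.2 in WT arrays, and the Y-linked Eif2s3y read 7.74 to 9.03 in CDKO arrays and 8.11 to 8.76 in WT arrays. These transcripts were thus high in both lines, whose arrays overlapped for each. The other tested Y-linked genes were low. Uty read 3.38 to 5.27 in CDKO arrays and 3.15 to 4.02 in WT arrays, which overlapped. Kdm5d read 3.32 to 4.19 in CDKO arrays and 4.54 to 5.22 in WT arrays, and so was lower in every CDKO array (limma adjusted p = 0.0576).

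The separated genes were spread over both directions. In CDKO arrays 472 genes were higher than in every WT array (4.55% of those tested), by a median of 0.72 (0.14 to 5.55, log2), and 303 were lower (2.92%), with a median difference of -1.10 (-6.12 to -0.065). A difference of at least 1 was seen in 139 of the higher and 165 of the lower genes. For 28 of the higher genes the WT mean was under 4, and for 48 of the lower genes the CDKO mean was under 4, so that their size was measured against background. Among probe sets 835 were higher (4.23%) and 795 lower (4.03%), and after each array was centred on its median the split became 643 higher and 979 lower. By limma 800 probe sets passed an adjusted p of 0.05 (4.05%), 374 higher (1.89%) and 426 lower (2.16%), 759 of them among the separated ones, while 871 separated probe sets did not pass. Of the 10371 genes 345 passed (3.33%), 198 higher (1.91%) and 147 lower (1.42%). Both measures read the same 10 arrays, and neither supports the other.

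**Figure D1:**
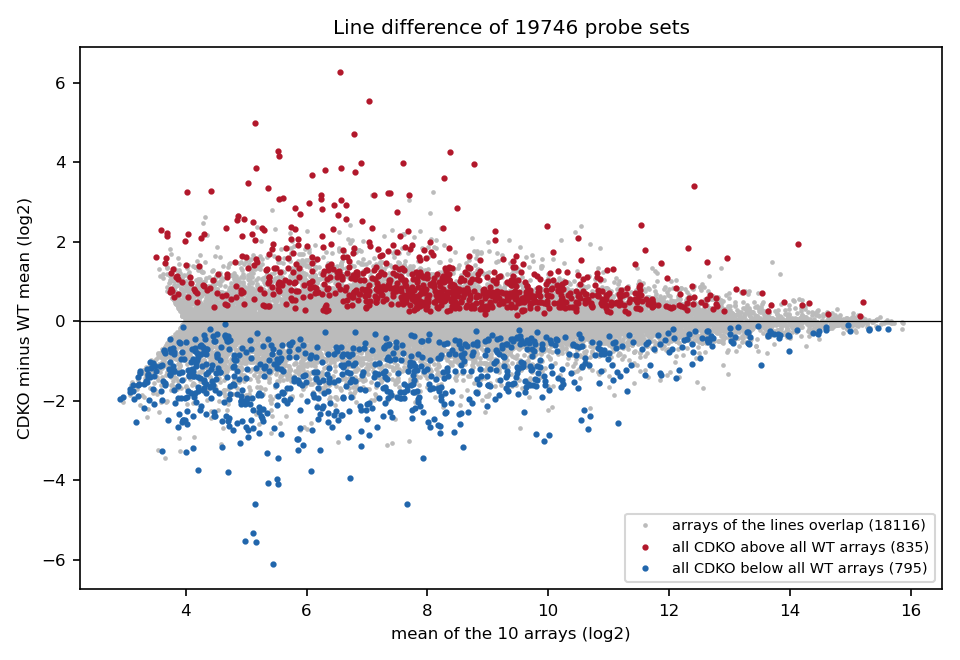
Difference between the line means (CDKO minus WT, log2) against the mean of the 10 arrays (log2) for the 19746 tested probe sets, 1 point each. Red points are the 835 probe sets with every CDKO array above every WT array, blue points the 795 with every CDKO array below every WT array, and grey points overlap; the widest differences lie at middle and low levels.

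The number of calls, 800 with all arrays, changed with the array left out. By limma, leaving out WT untreated replicate 1 gave 325 probe sets, leaving out its replicate 2 gave 334, and leaving out WT 5 µM replicate 1 gave 430. In the CDKO line the count was 382 when untreated replicate 2 was dropped, 456 when replicate 1 at 1 µM was dropped and 471 when replicate 2 at 5 µM was dropped. Of the 57 called genes among the 80 named by rule, 29 passed without any 1 of the 10 arrays.

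The genes with the widest separation are given first. For CDKO the lowest, the median and the highest of the 6 arrays are given, and for WT the 2 untreated arrays followed by the 2 at 5 µM, all as log2 levels. Counts over gene lists take each gene by its representative probe set, the one with the highest mean. Members whose other probe sets separated the lines were named after their values were seen. Those not taken up below are Zfp617, higher in every CDKO array on another probe set, and Adar, Foxp1, Nkd2, Nr2f2, Tcf7l2 and Tiparp, lower on another. Such counts stand against the shares of all tested genes, 4.55% separated higher and 2.92% lower, and 1.91% called higher and 1.42% lower. Differences are CDKO minus WT in log2 with their SE (n = 6 and 4 arrays) and limma's adjusted p. In RNA from whole cultures, fewer cells of a type and less RNA per cell cannot be told apart.

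Esr1, the gene of estrogen receptor alpha, had levels of 8.66, 9.34 and 9.90 in CDKO arrays, against 4.57, 2.63, 4.54 and 3.05 in WT arrays. All 6 CDKO arrays were high and all 4 WT arrays near background, a difference of 5.55 ± 0.42 (adjusted p = 9.87e-05). This rests on 1 of 3 probe sets, as the means of the other 2 were under 4 in both lines. The labels name no Cre driver and no probe sequences were used. Whether this signal came from the Esr1 gene or from a Cre joined to an estrogen receptor domain was not tested. Plau, the urokinase that activates plasminogen, had levels of 5.21, 7.47 and 8.91 in CDKO arrays, against 2.90, 3.02, 2.93 and 2.93 in WT arrays. Its CDKO arrays scattered widely while its WT arrays were all at background, and the difference was 4.30 ± 0.69 (adjusted p = 0.0090), or 2.62 within the higher spike-in class. Its other probe set overlapped, with levels of 2.67 to 7.90 in CDKO arrays and 2.59 to 3.09 in WT arrays (2.63 ± 1.02, adjusted p = 0.194). Vnn1, a pantetheinase of the cell surface, had levels of 7.48, 7.77 and 8.54 in CDKO arrays, against 5.38, 4.88, 4.63 and 4.65 in WT arrays. Its difference was 2.94 ± 0.24 (adjusted p = 1.48e-04), and its second probe set, with levels of 5.90 to 7.74 in CDKO arrays and 2.69 to 3.16 in WT arrays, separated the lines as well.

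Cdkn2a, the gene of the p16 and p19 inhibitors of proliferation, had levels of 8.34, 9.10 and 10.7 in CDKO arrays, against 3.45, 3.78, 6.74 and 6.87 in WT arrays. The CDKO arrays were high at every dose, and among WT arrays the untreated ones were near background and the treated ones between the levels of the lines. The difference was 3.98 ± 0.76 (adjusted p = 0.0198). The call was lost without WT untreated replicate 1 or 2 (highest adjusted p = 0.0651), and without the arrays with raised 18S the difference was 2.53. Its neighbour Cdkn2b, the gene of the related inhibitor p15, had levels of 12.4 to 13.2 in CDKO arrays and 11.6 to 12.5 in WT arrays, which overlapped (0.86 ± 0.22, adjusted p = 0.0661). Of 8 tested genes in the list of this locus and other cell cycle inhibitors, Cdkn2a alone separated the lines or passed the test on its representative probe set. On another probe set Cdkn1a, the gene of the p21 inhibitor, had levels of 9.76, 11.3 and 11.7 in CDKO arrays, against 8.34, 8.19, 8.86 and 8.78 in WT arrays (2.39 ± 0.44, adjusted p = 0.0162), with no overlap and a call lost without either untreated WT array. Its representative overlapped (0.72 ± 0.21, adjusted p = 0.0854). Mtap, a salvage enzyme gene beside the locus, was higher in every CDKO array on 2 of 4 probe sets, by 0.86 ± 0.17 (adjusted p = 0.0226) and 1.01 ± 0.20 (adjusted p = 0.0246). Both calls were lost without CDKO untreated replicate 2, CDKO 1 µM replicate 1 or either untreated WT array, the first also without either treated WT array and the second also without CDKO 5 µM replicate 2, and the other 2 probe sets overlapped.

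The other genes among the 15 largest rises were Zfp991, Prg4, Trim12a, Zc3h7b, Sema7a, Max, Ttc9, Styk1, Serpina3n, Znf41-ps and Elobl, with differences of 2.84 to 4.70. Prg4 encodes lubricin, a lubricant of joint surfaces, Sema7a a membrane-anchored semaphorin, Max the partner of MYC, and Serpina3n a secreted serine protease inhibitor. Sema7a (3.18 ± 0.62, adjusted p = 0.0220), Max (3.18 ± 0.67, adjusted p = 0.0296) and Elobl (2.84 ± 0.59, adjusted p = 0.0276) each lost their call without WT untreated replicate 1 or 2 and without WT 5 µM replicate 2. Sema7a also lost it without CDKO untreated replicate 2 or CDKO 1 µM replicate 1, Max without CDKO 5 µM replicate 2, and Elobl without CDKO 5 µM replicate 2 or WT 5 µM replicate 1, while the other 8 passed whichever array was left out. Prg4 was at 8.23 to 9.11 in 5 CDKO arrays and at 5.60 in CDKO 5 µM replicate 1, against 3.24 to 4.82 in WT arrays.

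**Figure D2:**
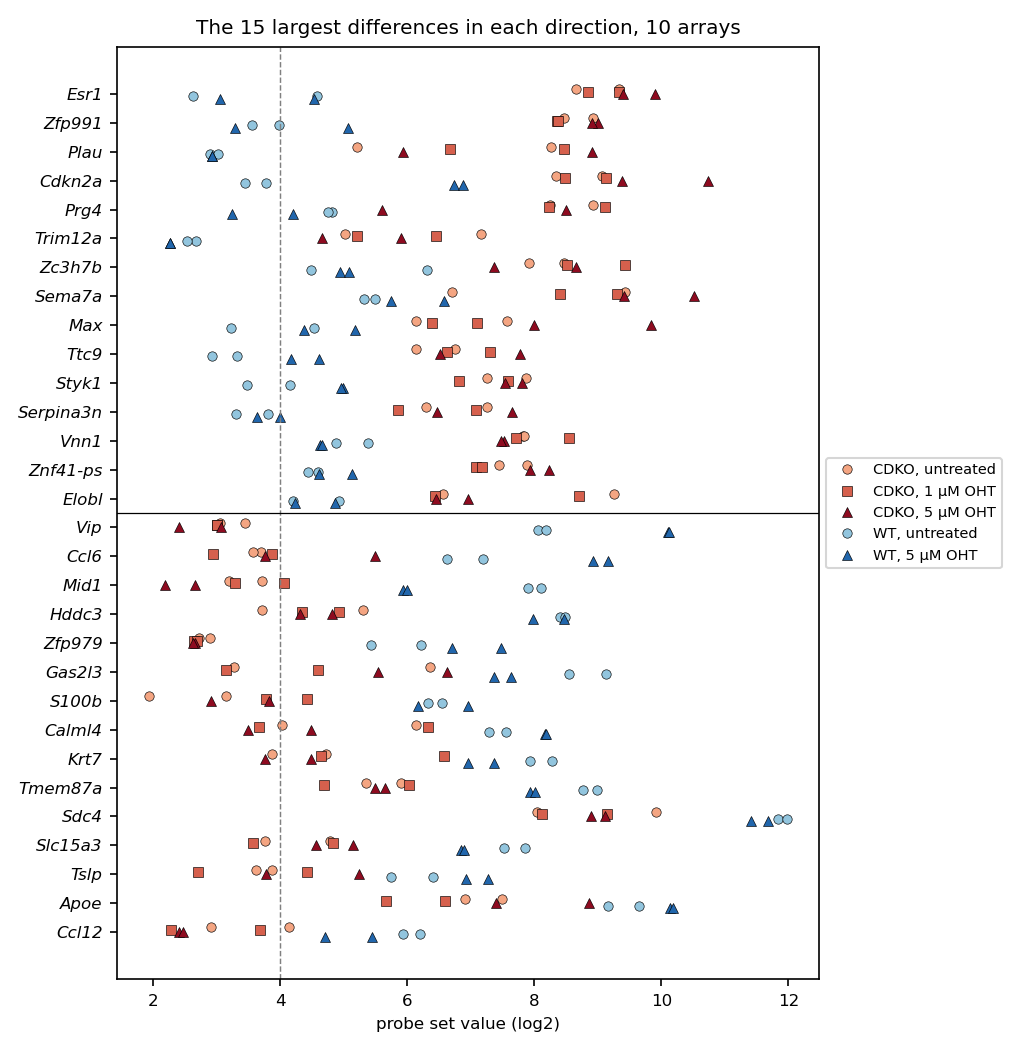
Log2 levels of the 15 genes with the largest rise (upper rows) and the 15 with the largest fall (lower rows), 1 point per array; reds are CDKO and blues WT, circles untreated, squares 1 µM and triangles 5 µM OHT, and the dashed line is the level of 4. In every row all 6 CDKO points lie on one side of all 4 WT points; Vip runs from 2.41 to 3.46 in CDKO arrays and from 8.06 to 10.1 in WT arrays.

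Vip, the gene of vasoactive intestinal peptide, showed the largest fall. It had levels of 2.41, 3.03 and 3.46 in CDKO arrays, against 8.06, 8.19, 10.1 and 10.1 in WT arrays. It was at background in every CDKO array and well above it in every WT array, with a difference of -6.12 ± 0.44 (adjusted p = 7.80e-05). Hddc3, a gene for a nucleotide pyrophosphohydrolase, had levels of 3.72, 4.59 and 5.30 in CDKO arrays, against 8.40, 8.49, 7.98 and 8.46 in WT arrays (-3.76 ± 0.29, adjusted p = 1.02e-04). Mid1, an X-linked ubiquitin ligase gene that binds microtubules, had levels of 2.19, 3.25 and 4.06 in CDKO arrays, against 8.11, 7.90, 5.93 and 6.00 in WT arrays (-3.79 ± 0.52, adjusted p = 0.0039). The groups of arrays were far apart for both genes, and for Mid1 the treated WT arrays lay below the untreated ones.

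Sdc4, the gene of the heparan sulfate proteoglycan syndecan-4, was lower in CDKO arrays on 1 probe set, with levels of 8.05, 9.0 and 9.92 in CDKO arrays, against 11.8, 12, 11.7 and 11.4 in WT arrays (-2.85 ± 0.35, adjusted p = 0.0018). Its other probe set did not follow, with levels of 7.39 to 10.5 in CDKO arrays and 7.06 to 9.15 in WT arrays (0.98 ± 0.59, adjusted p = 0.40). The other genes among the 15 largest falls were Ccl6, Zfp979, Gas2l3, S100b, Calml4, Krt7, Tmem87a, Slc15a3, Tslp, Apoe and Ccl12, with differences of -4.09 to -2.59. S100b encodes a calcium-binding protein of glial and fat cells, Krt7 a keratin of simple epithelia, Tslp a cytokine of barrier tissues, Apoe a lipid carrier and Slc15a3 a lysosomal peptide transporter of immune cells. Of these 11, Gas2l3 lost its call without each array other than CDKO untreated replicate 1 and CDKO 5 µM replicate 1. Apoe lost it without CDKO untreated replicate 2, CDKO 1 µM replicate 1, either treated WT array or WT untreated replicate 1, Calml4 without WT 5 µM replicate 1 or WT untreated replicate 1, and Krt7 without WT untreated replicate 1 (adjusted p = 0.0501). Apoe was at 5.66 to 8.87 in CDKO arrays and 9.15 to 10.2 in WT arrays, and its difference of -2.63 ± 0.52 shrank to -1.60 within the higher spike-in class.

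Some chemokines, the secreted proteins that draw leukocytes, and related genes were low in CDKO cells. Of 30 tested genes of the chemokine and cytokine list, 8 were lower in all CDKO arrays than in any WT array and none was higher, against the 2.92% and 4.55% of all tested genes. A total of 7 passed the test, namely Ccl6, Ccl12, Ccl3, Ccl9, Cxcl5, Il13ra1 and Vip, and Cxcl1 (-1.40 ± 0.47, adjusted p = 0.136) separated the lines without passing. The median over the list was -0.13, against 0.017 over all tested genes, and 13 of the 30 members were positive. Il13ra1, a receptor subunit for interleukin 13, Ccl9 and Cxcl5 fell outside the naming rule and were named after their values were seen. The list, chosen with earlier results of these data known, also held Vip and receptor genes, which are not chemokines. Its counts are a description and no support for a theme.

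The 4 CC chemokine genes that fell lie on chromosome 11, and their promoters are shown because these genes were low together. Each sequence runs 5′ to 3′ on its gene's strand, from 250 bases before to 50 bases after the gene start, as RefSeq gives it on GRCm38.p6. The regions are chr11:83649329-83649628 on the minus strand for Ccl3, chr11:83593038-83593337 on the minus strand for Ccl6, chr11:83578587-83578886 on the minus strand for Ccl9 and chr11:82101595-82101894 on the plus strand for Ccl12. Capitals mark matches, on either strand, to TATAAA, the TATA box, and to the NF-kappaB motif.
Ccl3: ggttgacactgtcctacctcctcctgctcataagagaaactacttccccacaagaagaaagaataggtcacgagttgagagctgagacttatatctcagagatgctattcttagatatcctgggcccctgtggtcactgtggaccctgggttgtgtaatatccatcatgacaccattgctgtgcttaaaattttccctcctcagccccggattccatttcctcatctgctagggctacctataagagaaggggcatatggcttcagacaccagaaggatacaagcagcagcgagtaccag
Ccl6: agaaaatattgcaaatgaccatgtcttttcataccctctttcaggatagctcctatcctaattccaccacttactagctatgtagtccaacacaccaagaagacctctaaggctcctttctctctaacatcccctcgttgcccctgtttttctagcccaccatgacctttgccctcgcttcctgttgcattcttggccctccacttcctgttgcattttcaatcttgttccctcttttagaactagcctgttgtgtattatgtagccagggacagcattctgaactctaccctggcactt
Ccl9: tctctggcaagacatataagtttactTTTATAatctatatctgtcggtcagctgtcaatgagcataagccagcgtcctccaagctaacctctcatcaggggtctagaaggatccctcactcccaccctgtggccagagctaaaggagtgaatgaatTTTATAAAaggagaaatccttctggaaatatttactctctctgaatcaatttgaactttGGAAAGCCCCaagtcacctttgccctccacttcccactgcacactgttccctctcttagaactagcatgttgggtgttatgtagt
Ccl12: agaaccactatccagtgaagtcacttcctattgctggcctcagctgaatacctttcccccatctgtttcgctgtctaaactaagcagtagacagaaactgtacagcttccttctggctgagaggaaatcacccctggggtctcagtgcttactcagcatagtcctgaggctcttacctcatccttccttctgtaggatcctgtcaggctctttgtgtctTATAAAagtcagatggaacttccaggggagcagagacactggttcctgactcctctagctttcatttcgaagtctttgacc
The TATA box letters stood in the windows of Ccl9 (3 matches, of which 2 overlap each other) and Ccl12, so in 2 of 4, against 13.6% of 32851 promoters of the same length. The NF-kappaB letters stood in that of Ccl9, 1 of 4, against 1.63% of promoters. The letters TTGCNNAA (C/EBP, 10.8% of promoters) and GAGGAAG (PU.1, 13.6%) stood in none of the 4. A match is a description of these letters and not a site.

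Ccl6, an attractant of macrophages in the mouse, had levels of 2.95, 3.73 and 5.50 in CDKO arrays, against 7.20, 6.63, 8.93 and 9.15 in WT arrays (-4.09 ± 0.59, adjusted p = 0.0049). Its second probe set separated the lines as well (-3.18 ± 0.70, adjusted p = 0.0342), with a call lost without each array other than CDKO untreated replicate 1 and WT untreated replicate 2. Ccl3, the macrophage inflammatory protein 1 alpha, had levels of 2.39, 3.04 and 3.75 in CDKO arrays, against 4.74, 4.64, 6.20 and 6.19 in WT arrays (-2.49 ± 0.39, adjusted p = 0.0079). Both were near background in the CDKO line, and in the WT line both untreated arrays lay below both treated ones. Ccl12, a monocyte attractant of the mouse, had levels of 2.28, 2.69 and 4.15 in CDKO arrays, against 5.94, 6.20, 4.71 and 5.44 in WT arrays (-2.59 ± 0.43, adjusted p = 0.0101). Ccl9 had levels of 7.20, 7.45 and 7.98 in CDKO arrays and 8.72 to 10.0 in WT arrays (-1.80 ± 0.30, adjusted p = 0.0110). Cxcl5, an attractant of neutrophils, had levels of 5.43, 6.35 and 6.88 in CDKO arrays and 8.09 to 8.49 in WT arrays (-2.09 ± 0.29, adjusted p = 0.0041). These 2 genes, unlike the 3 before, were well above background in both lines, and their arrays did not overlap. Not every chemokine was low: Cxcl12 (0.11 ± 0.27, adjusted p = 0.867), Ccl2 (-0.19 ± 0.72, adjusted p = 0.911) and Ccl7 (0.61 ± 0.62, adjusted p = 0.646), named after their values were seen, overlapped.

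Markers of macrophages and other leukocytes were low in the CDKO arrays too. All 16 tested markers had a negative difference, with a median of -1.65, and 4 of them, C1qa, C1qc, Tyrobp and Cd14, separated the lines and passed the test (2.92% of all tested genes separated lower and 1.42% were called lower). C1qa and C1qc, chains of complement C1q, had levels of 5.83, 7.52 and 8.34 and of 5.37, 6.37 and 7.60 in CDKO arrays. The WT arrays of C1qa read 9.52, 9.58, 9.85 and 9.74, and those of C1qc 8.64, 8.50, 8.49 and 8.45. The WT arrays were close together and the CDKO arrays wide apart, with differences of -2.29 ± 0.44 for C1qa (adjusted p = 0.0202) and -2.04 ± 0.36 for C1qc (adjusted p = 0.0137). Tyrobp, an adaptor of myeloid receptors, differed by -1.97 ± 0.44 (adjusted p = 0.0365) and Cd14, the endotoxin coreceptor, by -2.22 ± 0.46 (adjusted p = 0.0278). C1qa lost its call without WT 5 µM replicate 1 or either untreated WT array, Tyrobp and Cd14 without each of 6 or more arrays, and C1qc kept it throughout (highest adjusted p = 0.0499). On other probe sets Laptm5 (-1.59 ± 0.25, adjusted p = 0.0080), Csf1r (-0.67 ± 0.13, adjusted p = 0.0220, lost without WT 5 µM replicate 1 or either untreated WT array) and C1qb (-1.45 ± 0.41, adjusted p = 0.0810) were lower in every CDKO array as well.

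The leukocyte markers moved with the spike-in class. Their median level was 8.15 and 9.02 in CDKO untreated replicate 1 and CDKO 5 µM replicate 1, which are of the higher class, and 6.27 to 7.43 in the other 4 CDKO arrays, against 8.91 to 9.35 in WT arrays. Their summed log2 level over the 16 genes was 105.2 to 147.1 in CDKO arrays and 145.2 to 152.4 in WT arrays. Within the higher class the median difference was -0.50. The chemokine differences within that class were -3.38 for Ccl6, -2.03 for Ccl3, -2.29 for Ccl12, -1.40 for Ccl9 and -2.10 for Cxcl5. What part the leukocyte markers or the spike-in class had in the chemokine differences was not tested.

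Genes of fat cells formed another low group. Of 5 tested adipocyte markers 4 were lower in every CDKO array, and Fabp4, Pparg and Cd36 passed the test (2.92% and 1.42% of all tested genes). Fabp4, a fatty acid carrier, had levels of 8.12, 8.96 and 9.46 in CDKO arrays, against 10.2, 10.3, 11.1 and 11.1 in WT arrays (-1.77 ± 0.33, adjusted p = 0.0172). Pparg, the nuclear receptor that directs fat cell formation, had levels of 5.92, 6.22 and 6.62 in CDKO arrays, against 7.35, 7.42, 7.41 and 7.09 in WT arrays (-1.06 ± 0.16, adjusted p = 0.0069). Its spread was narrow in both lines, and it passed whichever array was left out, while Fabp4 lost its call without WT 5 µM replicate 1 (adjusted p = 0.0566). Cd36, a fatty acid receptor also found on macrophages, was at 2.84 to 3.61 in CDKO arrays and 3.81 to 5.07 in WT arrays (-1.36 ± 0.26, adjusted p = 0.0205), and lost its call without CDKO untreated replicate 2, WT 5 µM replicate 1 or WT untreated replicate 2. Cebpa, a transcription factor of fat cells and myeloid cells, separated the lines without passing (-2.22 ± 0.55, adjusted p = 0.0516). Lpl, lipoprotein lipase, overlapped on its representative (-3.0 ± 0.90, adjusted p = 0.102) and was lower in every CDKO array on another probe set (-2.95 ± 0.52, adjusted p = 0.0141, lost without WT untreated replicate 2). Within the higher spike-in class the median of the 5 markers was -1.67, against -1.77 over all arrays.

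Probe sets for classical class I genes of the major histocompatibility complex (MHC), which show peptides to T cells, gave some of the sharpest separations. H2-K1 was lower on all 3 tested probe sets, and its highest one had levels of 8.72, 9.59 and 10.5 in CDKO arrays, against 10.9, 10.7, 11.4 and 11.4 in WT arrays (-1.47 ± 0.30, adjusted p = 0.0273). The arrays did not overlap, but the call was lost without CDKO untreated replicate 2, CDKO 1 µM replicate 1 or any 1 of the 4 WT arrays. H2-D1 had 7 tested probe sets, of which 6 separated the lines. On 3 of these every CDKO array was at background, and each is named here after its values were seen. The first had levels of 2.73, 2.80 and 2.81 in CDKO arrays, against 7.96, 7.85, 8.72 and 8.67 in WT arrays (-5.52 ± 0.19, adjusted p = 2.00e-07). The second had levels of 2.87, 2.94 and 3.08 in CDKO arrays and 8.20 to 8.82 in WT arrays (-5.55 ± 0.16, adjusted p = 1.42e-07), and the third 3.26 to 3.40 in CDKO arrays and 7.34 to 8.30 in WT arrays (-4.59 ± 0.18, adjusted p = 4.58e-07). The probe set of H2-D1 with the highest mean did give signal in the CDKO line. It had levels of 9.07, 10.6 and 11.0 in CDKO arrays, against 11.2, 11.2, 12.1 and 12.1 in WT arrays, a smaller difference that did not pass (-1.25 ± 0.38, adjusted p = 0.106).

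All of these H2-K1 probe sets, those 3 of H2-D1 and its probe set with the highest mean carry the Affymetrix suffix for probes that can also match other transcripts. Class I genes may therefore share their signal, and none of it can be assigned to 1 gene. Whether the probes match the genes of both lines equally well was not tested, as no probe sequences were used. Of 9 tested genes of the MHC and antigen presentation list, H2-K1 and H2-D1 were lower and Tap1, a subunit of the peptide transporter, was higher in every CDKO array (1.69 ± 0.44, adjusted p = 0.0657, which did not pass). Of all tested genes 2.92% separated lower and 4.55% higher.

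Separation often held for some probe sets of a gene and not for others. For the genes separated upward, 323 other tested probe sets existed for 204 of them, of which 82.7% had the same sign and 17.0% separated the same way. For the genes separated downward, 223 existed for 128 of them, with 71.7% and 20.2%. Among overlapping genes 62.2% of other probe sets had the same sign and 7.38% separated either way. In 41 genes all of 2 or more tested probe sets separated one way, 25 up and 16 down, and in 18 genes probe sets separated in both directions. Of the genes named by rule, Zfp991, Pax3, Hand2, Hgf, Sema3c, Tnfrsf10b, Hoxa5 and Mirg each separated the lines on 1 of 2 tested probe sets. Rora did so on 1 of 5. The genes of the next paragraph were named after their values were seen.

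Uqcr10, a subunit of complex III of the respiratory chain, was higher in CDKO arrays on all 3 probe sets, by very unequal amounts. The first had levels of 8.70, 8.92 and 9.60 in CDKO arrays, against 2.76, 2.83, 2.78 and 2.79 in WT arrays (6.29 ± 0.21, adjusted p = 2.00e-07). The second differed by 3.60 ± 0.27 (adjusted p = 9.87e-05). On the third the levels were 11.5, 11.7 and 12.2 in CDKO arrays, against 10.9, 10.9, 11.4 and 11.4 in WT arrays, which did not overlap but did not pass (0.65 ± 0.18, adjusted p = 0.0780). The WT line thus had signal for this gene on one probe set and only background on another. Pik3r1, the regulatory subunit of phosphoinositide 3-kinase, was lower in every CDKO array on one probe set (-2.85 ± 0.34, adjusted p = 0.0015) and higher in every CDKO array on another (1.35 ± 0.37, adjusted p = 0.0762). On the first its levels were 4.74, 5.96 and 6.64 in CDKO arrays, against 8.54, 8.91, 8.82 and 8.69 in WT arrays. On the other they were 8.59, 8.94 and 9.32 in CDKO arrays, against 8.25, 8.54, 6.81 and 6.78 in WT arrays. Another of its 4 probe sets passed the test upward with 1 CDKO array inside the WT range (2.80 ± 0.57, adjusted p = 0.0259), a call lost without CDKO untreated replicate 2, CDKO 1 µM replicate 1, CDKO 5 µM replicate 2 or either untreated WT array. No direction can be given for this gene as a whole. Ago2, the Argonaute protein that can cut its target, was likewise lower on one probe set (-1.54 ± 0.27, adjusted p = 0.0141), which lost its call without either untreated WT array, and higher on another (0.86 ± 0.32, adjusted p = 0.173).

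**Figure D3:**
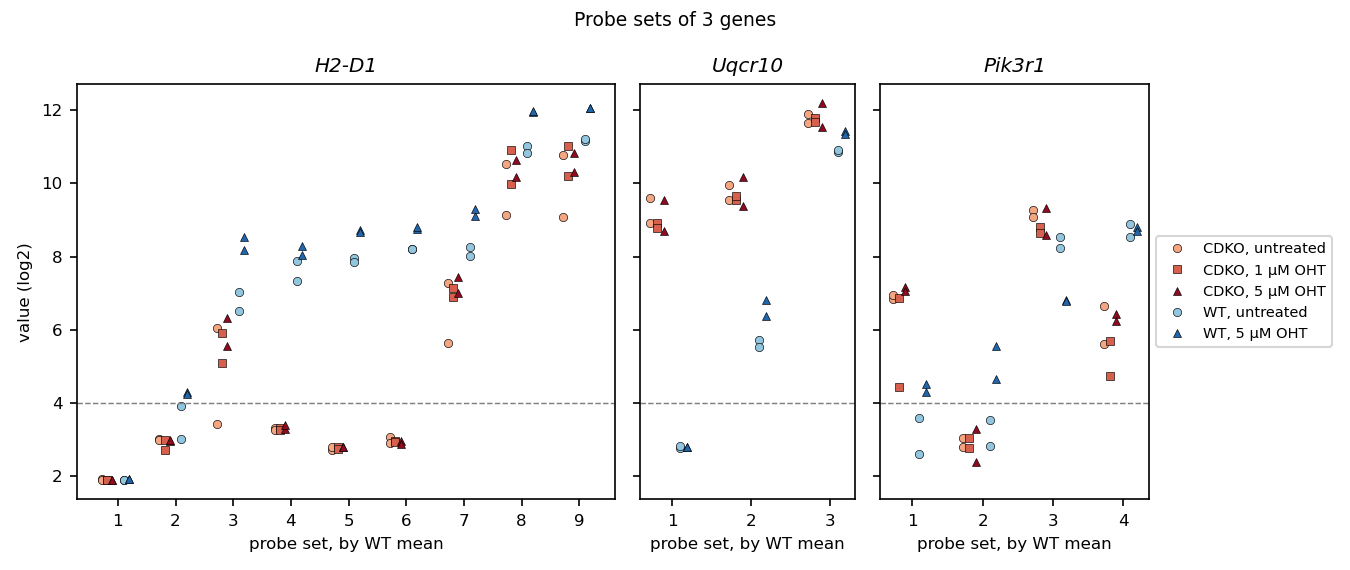
Log2 levels of every probe set of H2-D1 (9), Uqcr10 (3) and Pik3r1 (4), ordered by their WT mean, 1 point per array; reds on the left of each position are CDKO and blues on the right WT, and the dashed line is the level of 4. For H2-D1 the CDKO points of positions 4 to 6 lie under 4 while the WT points lie above 7; for Uqcr10 the WT points of position 1 lie under 4 while the CDKO points lie between 8.70 and 9.60.

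Genes activated by p53, the transcription factor that halts the cell cycle or kills cells after damage, leaned upward. Of 23 tested targets 7 were higher in every CDKO array and none lower, against 4.55% and 2.92% of all tested genes, and Eda2r, Gadd45a and Tnfrsf10b passed the test (1.91% of all tested genes were called higher). Eda2r, a receptor of the tumour necrosis factor family, had levels of 9.12, 9.67 and 10.0 in CDKO arrays, against 8.41, 8.51, 8.48 and 8.58 in WT arrays (1.12 ± 0.19, adjusted p = 0.0107). Gadd45a, a stress sensor, had levels of 9.79, 10.2 and 11.0 in CDKO arrays, against 8.91, 8.73, 9.31 and 9.30 in WT arrays (1.18 ± 0.25, adjusted p = 0.0277). Tnfrsf10b, a death receptor, had levels of 5.19, 5.85 and 6.77 in CDKO arrays, against 4.48, 4.30, 4.36 and 5.05 in WT arrays (1.33 ± 0.29, adjusted p = 0.0320). The steps were of about 1 log2 unit in all 3, with no overlap. Eda2r passed whichever array was left out, Gadd45a lost its call without 5 arrays (CDKO untreated replicate 2, CDKO 1 µM replicate 1, WT 5 µM replicate 1 and both untreated WT arrays) and Tnfrsf10b without 7. Ccng1, Ei24, Zmat3 and Tigar separated the lines by 0.42 to 0.66 without passing, and a second probe set of Tigar separated them the other way (-0.84). The median of the list was 0.58, against 0.017 over all tested genes, and 0.43 within the higher spike-in class. Pmaip1 (1.95 ± 0.51, adjusted p = 0.0643) overlapped, with levels of 10.5 to 12 in CDKO arrays and 8.41 to 10.6 in WT arrays.

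Positional genes moved in both directions. Of 23 tested Hox genes, which record position along the body axis, 3 were higher in every CDKO array (4.55% of all tested genes) and 0 passed the test by limma (4 at an unadjusted p under 0.05). Hoxb9 differed by 1.44 ± 0.42 (adjusted p = 0.0924), Hoxa7 by 0.83 ± 0.36 (adjusted p = 0.242) and Hoxa5 by 0.75 ± 0.20 (adjusted p = 0.0720). CDKO 5 µM replicate 1 stood above all other arrays for Hoxb9 and Hoxa7. Among 50 tested transcription factors of position and mesenchyme 2 were higher and 2 lower in every CDKO array, near the shares of all tested genes (4.55% and 2.92%). By limma 1 was called higher and 4 lower (1.91% and 1.42% of all tested genes), the 4 including Mef2c (-3.08 ± 0.70, adjusted p = 0.0385) and Meox2 (-1.86 ± 0.45, adjusted p = 0.0471), whose arrays overlapped and whose calls were each lost without 8 arrays. Pax3, a factor of neural crest and muscle precursors, had levels of 4.64, 5.83 and 6.69 in CDKO arrays, against 3.36, 3.60, 4.26 and 3.34 in WT arrays (2.15 ± 0.40, adjusted p = 0.0175). Hand2, a factor of heart, limb and branchial arch mesenchyme, had levels of 6.38, 6.73 and 7.03 in CDKO arrays, against 8.15, 8.30, 7.40 and 7.29 in WT arrays (-1.08 ± 0.24, adjusted p = 0.0362). Lmo1, a LIM-domain cofactor, had levels of 2.21, 3.68 and 4.54 in CDKO arrays, against 7.39, 6.25, 5.73 and 5.45 in WT arrays (-2.51 ± 0.50, adjusted p = 0.0233). The lines did not overlap for any of the 3, and in each the call was lost without either untreated WT array. Hand2 and Lmo1 also lost it without CDKO untreated replicate 2, CDKO 1 µM replicate 1 or CDKO 5 µM replicate 2, and Hand2 without CDKO 5 µM replicate 1. Alx1, a factor of craniofacial mesenchyme, separated the lines with levels of 2.66 to 6.62 in CDKO arrays and 2.38 to 2.64 in WT arrays, but only 3 CDKO arrays were above 4 (1.61 ± 0.76, adjusted p = 0.281).

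Signalling ligands, receptors and guidance cues gave scattered genes in both directions. Sema3e and Sema3c, secreted semaphorins that steer vessels and axons, were higher by 2.35 ± 0.47 (adjusted p = 0.0246) and 0.71 ± 0.14 (adjusted p = 0.0246). Sema3c had levels of 9.36, 9.50 and 9.76 in CDKO arrays, against 8.98, 8.98, 8.66 and 8.64 in WT arrays, a small step with no overlap. Both lost their call without CDKO untreated replicate 2 or any 1 of the 4 WT arrays, Sema3e also without CDKO 1 µM replicate 1 and Sema3c also without CDKO 5 µM replicate 2. In all, 4 of 43 tested cadherins, semaphorins, ephrins and plexins were higher and 1 lower in every CDKO array (4.55% and 2.92% of all tested genes). Wnt9a, a ligand of joint formation, had levels of 7.39, 8.60 and 8.97 in CDKO arrays, against 6.57, 6.50, 6.50 and 6.85 in WT arrays (1.83 ± 0.28, adjusted p = 0.0068). It was the only 1 of 27 tested Wnt pathway genes whose representative probe set separated the lines or passed, and it passed whichever array was left out. Wnt5a overlapped on its representative, was higher in every CDKO array on a second probe set (1.04 ± 0.27, adjusted p = 0.0686) and lower on another (-0.86 ± 0.18, adjusted p = 0.0282). That call was lost without CDKO untreated replicate 2, CDKO 1 µM replicate 1, WT 5 µM replicate 1 or either untreated WT array. Bmp6, a bone morphogenetic protein, was higher by 1.33 ± 0.32 (adjusted p = 0.0485), a call that was lost without each array other than CDKO 1 µM replicate 2. Of 41 tested TGF-beta and BMP genes Bmp6 alone was higher and Bambi alone lower in every CDKO array on the representative probe set. Of all tested genes 4.55% separated higher and 2.92% lower. On other probe sets Bmpr2 was higher and Fst and Smad1 lower in every CDKO array, and they passed (adjusted p = 0.0043, 0.0075 and 0.016). Smad1 alone lost its call when arrays were left out, without either untreated WT array. Hgf, the hepatocyte growth factor, was at 3.65 to 4.96 in CDKO arrays and 5.54 to 7.36 in WT arrays (-1.96 ± 0.37, adjusted p = 0.0191, lost without WT untreated replicate 1). Of 36 tested growth factors and receptors it alone separated the lines on its representative probe set. On other probe sets Hbegf was higher and Igf1r lower in every CDKO array, and both passed (adjusted p = 0.0049 and 0.0215). Igf1r lost its call without CDKO untreated replicate 2, WT 5 µM replicate 1 or WT untreated replicate 2, and Hbegf kept it throughout. Col18a1, the collagen that yields endostatin, was higher on both probe sets, by 1.99 ± 0.46 (adjusted p = 0.0399) and 2.27 ± 0.41 (adjusted p = 0.0156), and was the only 1 of 50 tested matrix genes to separate the lines on any tested probe set. Within the higher spike-in class the first of these was 0.76, and its call was lost without each array other than CDKO untreated replicate 1 and CDKO 5 µM replicate 1, while the second was lost without WT 5 µM replicate 1. None of 14 tested integrins separated the lines, and 0 passed by limma on the representative probe set (2 at an unadjusted p under 0.05), while another probe set of Itga6 passed with overlap (-1.76 ± 0.42, adjusted p = 0.0445, lost without each array other than CDKO 5 µM replicate 1).

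Zinc finger genes of the KRAB class, a large family of repressors in which near-identical copies lie side by side, held some of the widest gaps. Of 19 tested genes of that list, 2 were higher and 3 lower in every CDKO array, and all 5 passed. Of all tested genes 4.55% separated higher and 2.92% lower, and 1.91% were called higher and 1.42% lower. Zfp991 had levels of 8.36, 8.69 and 9.01 in CDKO arrays, against 3.98, 3.55, 3.29 and 5.06 in WT arrays (4.70 ± 0.32, adjusted p = 5.33e-05). Zfp979 had levels of 2.63, 2.68 and 2.89 in CDKO arrays, against 5.44, 6.21, 7.47 and 6.70 in WT arrays (-3.75 ± 0.32, adjusted p = 2.04e-04). Another tested probe set of Zfp991 overlapped. On the probe sets given, each gene was at or near background in one line and well above it in the other. They are neighbours on chromosome 4 with the pseudogene Znf41-ps (2.93 ± 0.26, adjusted p = 2.43e-04) and Gm13238, and all 4 tested genes of that stretch separated the lines, 3 up and 1 down. Since copies of this family share sequence, which copy a probe set reported is uncertain. Zfp30 (-2.21 ± 0.38, adjusted p = 0.0126), Zfp458 (-2.29 ± 0.36, adjusted p = 0.0079) and Zfp874a (2.19 ± 0.37, adjusted p = 0.0115) lie elsewhere, and these 3 calls held whichever array was left out.

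Other stretches of up to 2 Mb in which at least 4 genes and at least 40% of the tested genes separated were found on chromosomes 1, 6 (at 2 places), 9, 10 and 17, and were chosen after their values were seen. The one on chromosome 1 held 6 separated of 10 tested genes, among them Prg4 and Niban1, and the one on chromosome 9 held 5 of 10, all higher in CDKO arrays. The one on chromosome 10 held Esr1 and Rgs17, a regulator of G protein signalling, which were higher, and Vip and Mthfd1l, a mitochondrial folate enzyme, which were lower, 4 of 10 in all. Esr1 and Vip, which had the largest rise and the largest fall among representative probe sets, thus lie near each other as genes. Whether the Esr1 signal came from the gene at this place was not tested. By chromosome the share of separated genes was between 5.69% (chromosome 16) and 10.9% (chromosome 13), leaving aside chromosome Y with 3 tested genes.

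Imprinted and interferon-stimulated genes gave 4 separated members by representative probe set. Of 22 tested imprinted genes, which are read from 1 parental copy, 2 were lower in every CDKO array (2.92% of all tested genes): Dlk1 (-2.14 ± 0.51, adjusted p = 0.0464), an inhibitor of fat cell formation, and Mirg (-1.36 ± 0.39, adjusted p = 0.0851), a host of microRNAs of the same chromosome 12 cluster. Dlk1 had levels of 5.56, 6.98 and 8.19 in CDKO arrays, against 9.86, 9.79, 8.36 and 8.64 in WT arrays, and lost its call without each array other than CDKO 1 µM replicate 2. On other probe sets Meg3, a long noncoding RNA gene of that cluster, and Peg3, a zinc finger gene, were lower in every CDKO array. Meg3 had levels of 4.96, 5.14 and 5.58 in CDKO arrays, against 7.94, 8.31, 7.57 and 6.86 in WT arrays (-2.47 ± 0.26, adjusted p = 7.71e-04), a call kept whichever array was left out, while its other 8 tested probe sets overlapped with differences of either sign. Peg3 had levels of 6.83, 8.76 and 10.2 in CDKO arrays, against 11.7, 12.3, 11.6 and 11.3 in WT arrays (-3.0 ± 0.61, adjusted p = 0.0256). Its call was lost without CDKO untreated replicate 2, CDKO 1 µM replicate 1, WT 5 µM replicate 1 or either untreated WT array, and its other 2 probe sets overlapped. Impact was also lower in every CDKO array on another probe set. Of 20 tested interferon-stimulated genes, Ifi202b (-1.64 ± 0.37, adjusted p = 0.0385) and Ifi204 (-1.77 ± 0.42, adjusted p = 0.0446), members of a family of similar genes on chromosome 1, were lower in every CDKO array and passed (2.92% of all tested genes separated lower and 1.42% were called lower). Their calls were lost without 7 and 8 arrays, among them every WT array for Ifi202b and all but untreated replicate 2 for Ifi204. Another probe set of Xaf1, a proapoptotic gene, was higher in every CDKO array (3.47 ± 0.32, adjusted p = 3.56e-04). The median over the interferon list was 0.18, but 1.00 between the untreated groups and -0.79 at 5 µM.

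Dicer1 itself did not separate the lines. It had levels of 5.40, 5.91 and 8.30 in CDKO arrays, against 8.97, 9.10, 7.64 and 7.19 in WT arrays, and CDKO 1 µM replicate 2 reached into the WT range (-1.83 ± 0.60, adjusted p = 0.132). That array and both untreated WT arrays, the highest for Dicer1, are the 3 with raised 18S, and without them the difference was -1.40. The other tested probe set of Dicer1 overlapped as well, at 5.49 to 6.55 in CDKO arrays and 5.90 to 7.31 in WT arrays (-0.53 ± 0.33, adjusted p = 0.426). Without the 3 arrays with raised 18S its difference was 0.029. Of 18 tested genes of the microRNA machinery none separated the lines on its representative probe set, and 0 passed by limma (3 at an unadjusted p under 0.05). On other probe sets Ago2, as given above, and the GW182 family genes Tnrc6a (1.61 ± 0.38, adjusted p = 0.0456, lost without 8 arrays) and Tnrc6b (-1.24 ± 0.27, adjusted p = 0.0347, lost without 6) separated the lines and passed. Mitosis genes were all 24 lower on average, with a median of -1.01, yet none separated the lines and 0 passed (3 at an unadjusted p under 0.05). Their median was -1.75 between the untreated groups and -0.08 without the arrays with raised 18S.

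**Figure D4:**
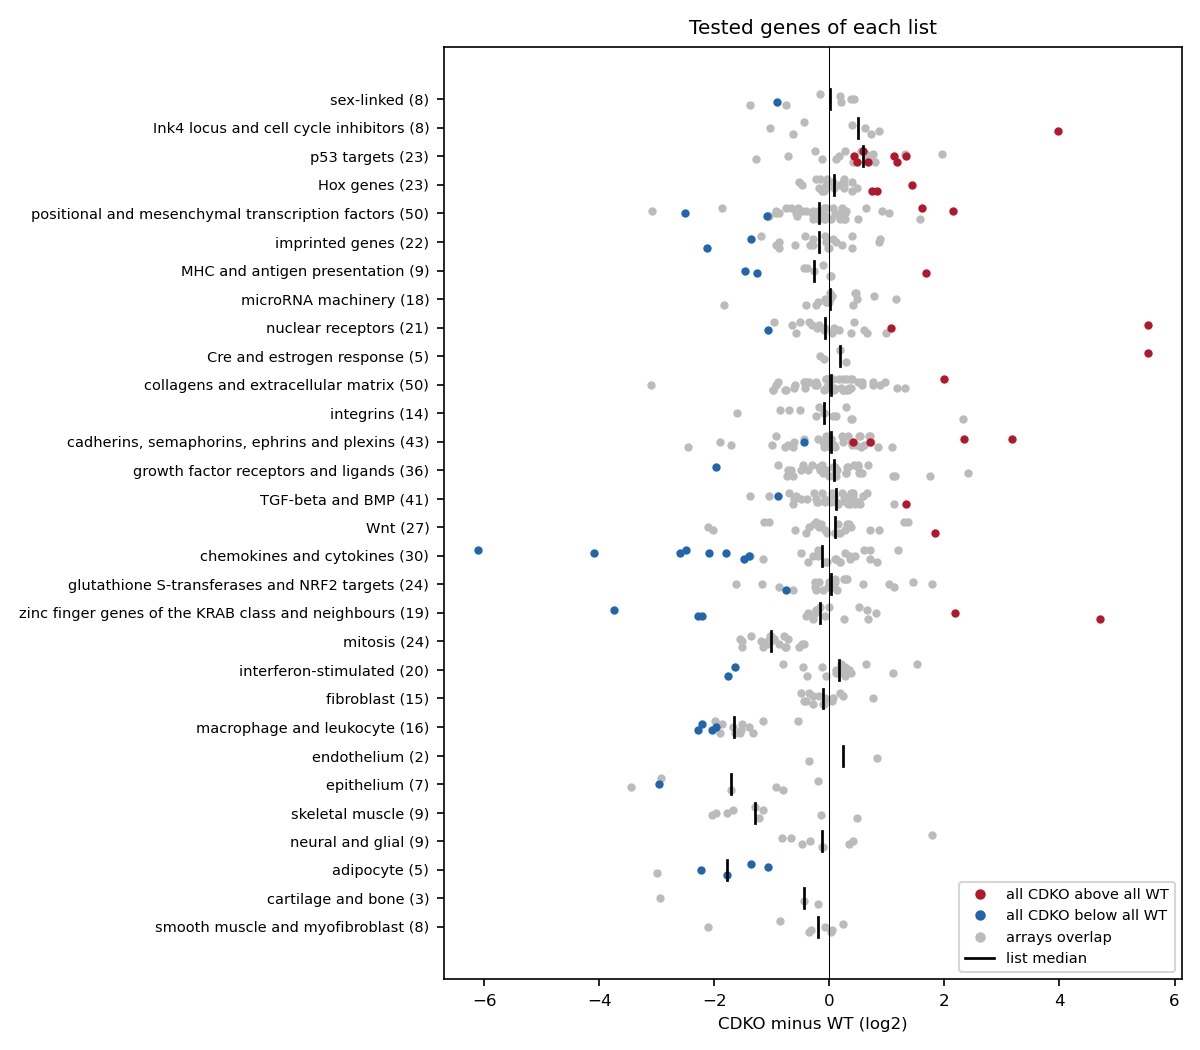
Difference between the lines (CDKO minus WT, log2) of each tested gene in 30 lists, with the number tested in brackets; red and blue points are genes with every CDKO array above or below every WT array, grey points overlap, and the black bar is the list median. The adipocyte, epithelium, leukocyte, skeletal muscle and mitosis medians stand at -1.77, -1.71, -1.65, -1.30 and -1.01, and the p53 median at 0.58.

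The remaining lists held few members. Of 21 tested nuclear receptors Esr1 and Rora (1.08 ± 0.35, adjusted p = 0.124) were higher and Pparg lower in every CDKO array (4.55% and 2.92% of all tested genes). Of 24 tested glutathione S-transferases and NRF2 targets Gstp1 alone separated the lines on its representative probe set, at 13.6 to 13.9 in CDKO arrays and 14.3 to 14.6 in WT arrays (-0.76 ± 0.13, adjusted p = 0.0140, lost without WT 5 µM replicate 1). Of 7 tested epithelial markers Krt7 alone separated the lines, but all 7 were negative, with a median of -1.71, and 8 of 9 skeletal muscle markers were negative, with a median of -1.30. Both shifts lay in the untreated WT arrays. The median level of the epithelial markers was 3.76 to 4.34 in CDKO arrays, against 8.28 and 7.94 in the untreated and 4.35 and 4.30 in the treated WT arrays. That of the muscle markers was 4.31 to 5.61 in CDKO arrays, against 7.82 and 7.18 in the untreated and 5.00 and 5.01 in the treated WT arrays. The list medians were -3.36 and -2.59 between the untreated groups and -0.05 and -0.34 at 5 µM, and what part epithelial or muscle cells had in other differences was not tested. On its representative probe set no tested marker of endothelium, skeletal muscle, cartilage and bone, smooth muscle or neural cells separated the lines, though Tubb3, a neuronal tubulin, passed the test with 1 CDKO array inside the WT range (1.78 ± 0.43, adjusted p = 0.0482), a call lost without each array other than CDKO 5 µM replicate 1. Another probe set of Ncam1, a neural adhesion gene, was higher in every CDKO array (2.99 ± 0.59, adjusted p = 0.0220, lost without CDKO untreated replicate 2 or WT 5 µM replicate 1).

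Whether the line difference had the same size with and without the drug was asked with the 5 groups as separate means. The rule fixes the sign at both doses and favours genes with little change inside a line. The sizes below therefore describe the members and do not test stability. Among the 775 separated genes the ratio of the difference at 5 µM to that without the drug had a median of 0.94 and lay between 0.5 and 2 for 534 (68.9%). The difference changed with 5 µM OHT in 0 of the 775 genes by limma (94 at an unadjusted p under 0.05, or 12.1%, against 11.4% of all tested genes), while 17 of all tested genes (0.164%) and 43 of all probe sets (0.218%) passed. Each such difference rests on 2 arrays a group. Esr1 differed by 5.39 untreated and 5.85 at 5 µM, Sdc4 by -2.92 and -2.55, Cdkn2a by 5.09 and 3.25, and Vip by -4.87 and -7.37. Esr1 and Sdc4 changed little in either line. Cdkn2a was higher by 3.19 (limma adjusted p = 0.0155) and Vip by 1.98 (adjusted p = 0.0113) in treated than in untreated WT arrays.

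Among the separated genes 44 of 775 differed by limma between treated and untreated WT arrays (5.68%, against 7.31% of all tested genes). Of these 20 were higher and 24 lower at 5 µM OHT. Between CDKO arrays at 5 µM and untreated, 0 differed (41 at an unadjusted p under 0.05, against 8 (0.0771%) and 749 of all 10371 genes). The rule favours genes with little change inside a line, and nothing is read from these shares. By probe set, 10 that separated the lines did change in their difference, all of them lower in CDKO arrays and none the representative of its gene. On 1 probe set of Bach2, a transcription factor of B cells named after its values were seen, the difference was -4.71 untreated and -0.41 at 5 µM (adjusted p = 0.0043).

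**Figure D5:**
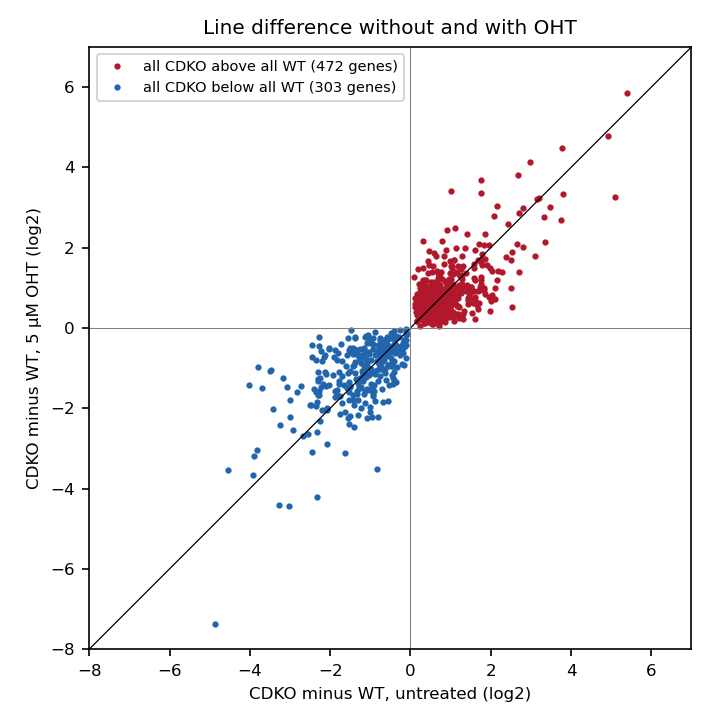
Difference between the lines at 5 µM OHT against the difference without the drug (both CDKO minus WT, log2) for the 472 genes higher and 303 genes lower in every CDKO array, 1 point per gene; the diagonal marks equal size. Esr1 lies near the diagonal at 5.39 and 5.85, and Vip below it at -4.87 and -7.37.

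At the edge of the rule, Hoxa7 and Gpt, an alanine aminotransferase gene, were inside by gaps of 4.14e-04 and 1.86e-04 between the nearest arrays of the lines. Saa3, a serum amyloid gene, and Arv1, a sterol transport gene, were outside by -1.67e-04 and -3.57e-04. Saa3 had a mean difference of -2.24 all the same, with levels of 3.40 to 3.83 in CDKO arrays and 3.83 to 8.02 in WT arrays. Of the higher of a probe set's 2 line means, the smallest that was still tested was 4.0006 and the largest that was not was 3.9999.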

How the data were processed

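Expression was measured on 10 Affymetrix arrays, 1 value per probe set and array. The submitters' processing notes name GCRMA, without a version, as the method by which the authors made the deposited log2 values. The log2 scale was read from the values (1.09 to 16.0). The sources used here do not state the chip definition or any filter. Of 45101 probe sets 64 controls were left out. Of the rest, 34945 had 1 gene symbol in GEO's platform annotation, 932 had several or none and 9160 were not listed there.

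Groups were taken from the sample titles. Line means were compared with limma 3.58.1 (lmFit and eBayes under R 4.3.3, Benjamini-Hochberg adjusted over 19746 probe sets with a line mean of at least 4), and the change of the line difference with drug in a fit of 5 group means. Named genes were, from the representative probe sets, the 15 largest differences in each direction that were separated and called, up to 4 separated members of each of 30 lists, the 5 widest gaps in each direction, the sex-linked genes, Dicer1, Esr1, Cdkn2a, Cdkn2b and Mtap; clone and model names were passed over. The comparison, the members and the lists were chosen with earlier results of these data known.

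In simulated data the fit recovered 36%, 80%, 90% and 98% of differences of 1, 2, 3 and 4, with 15 unchanged probe sets among 167 called. The simulated noise was independent between arrays, without treatment groups, spike-in classes or differences of RNA quality. These rates therefore need not hold for the real arrays. Alternatives covered filters, normalization, models, blocks, weights and left-out arrays. Same-numbered replicates deviated from their group means with correlations of -0.458 to 0.443, and numbers were not taken to pair samples. The highest was between CDKO untreated and CDKO 5 µM, in both of which replicate 1 was of the higher spike-in class and replicate 2 of the lower. With 2 arrays a group, these correlations cannot exclude batches shared between groups. The number of arrays limits the precision.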

Additional observations from a re-analysis of the deposited data

Results flagged for a closer look

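Among 160 groups of arrays (each line, for each of the 80 named genes), 10 had 1 array far from the rest of its line, and chance gives about 1 in 20. In CDKO 5 µM replicate 1, Prg4 was at 5.60 (nearest CDKO array 8.23), Hoxb9 at 8.48 (7.12), Hoxa7 at 8.89 (7.41) and Ccl6 at 5.50 (3.87). In CDKO 1 µM replicate 2, Vnn1 was at 8.54 (7.83) and Krt7 at 6.59 (4.72). In CDKO untreated replicate 1, Zfp458 was at 4.00 (3.59) and Zfp979 at 2.89 (2.73), both at or under the level of 4. In the WT line, Kdm5d, a Y-linked demethylase gene, was at 5.22 in 5 µM replicate 2 (nearest WT array 4.63), and Mirg at 8.64 in untreated replicate 2 (7.51). Kdm5d was lower in every CDKO array (-0.91 ± 0.23, SE, n = 6 and 4; limma adjusted p = 0.0576).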

How the results depend on the processing

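Leaving out each array in turn gave 325 to 939 probe sets past limma's threshold (800 with all arrays), 1731 to 2503 without overlap (1630; 2503 without CDKO 1 µM replicate 2), 32 to 56 of the named genes called (57; 32 and 36 without the untreated WT arrays, 37 without WT 5 µM replicate 1) and 8 to 120 changes of the line difference with OHT (43; 120 without either CDKO 1 µM array and 8 to 29 without each of the others). Fewer arrays make separation easier by construction. The count of calls was 343 with 1 probe set per gene, 2077 with 5 group means, 2838 with array weights, 55 for a minimum difference of 1 and 442 without a filter. For subsets of arrays, the counts of calls, of probe sets without overlap and of named genes called were 382, 2868 and 35 for the doses of both lines, 2, 11135 and 0 for 5 µM alone (2 groups of 2 arrays; 4141 probe sets at an unadjusted p under 0.05), 830, 12401 and 23 for untreated arrays alone, 481, 4637 and 28 without untreated WT arrays, 526, 5657 and 31 without raised 18S, and 365, 6701 and 19 within the higher spike-in class. The named genes called were 36 with a block for spike-in class, 10 for a minimum difference of 1 and 32 without a filter, and 1 probe set per gene gave 775 without overlap. The changes of the line difference were 194 without a filter and 120 with the 8 untreated and 5 µM arrays alone. Replicate numbers were not taken to pair the samples, and as a block they gave 614 calls, 52 named genes called and 22 changes of the line difference. The class subset, and the block and left-out arrays for that last count, were chosen after seeing the data. Other alternatives stayed within 1.5 times of these counts. No named gene that separated the lines changed sign in 29 alternatives, and separation fixes that when arrays are left out. Signs turned for Xist (-0.0527 at 5 µM, -0.36 with the class block and within the class), Eif2s3y (0.46 in both class settings, 0.34 untreated) and Kdm5c (-0.10 untreated, -0.0167 without WT 5 µM replicate 2, with 0.3749 the highest when arrays were left out). Of the 57 called named genes 14 passed under each of 16 alternatives other than left-out arrays. These 16 do not include 5 µM alone (0 named genes called) or the minimum difference of 1 (10 called). No named gene therefore passed under all 29 alternatives. The causes were not tested.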
